A study of Homo sapiens with 3 samples.

Results

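The genes described here are 40 genes of glycolysis and of the cellular response to low oxygen, out of 57736 gene rows in the count table. They were taken by gene symbol, with pseudogenes left out, and all 40 symbols were found. Of the 40, 39 had enough counts to be tested. The exception was CA9, the hypoxia-induced carbonic anhydrase, with 4 counts in wild-type cells and 0 and 3 in the knockdown libraries. RNA came from TOV21G, an established line of human ovarian clear cell carcinoma in which ARID1A, a subunit gene of the SWI/SNF chromatin remodeller, is mutated. All 3 libraries share that mutation. One library is of wild-type cells (WT), and the other 2 are of cells transduced with a lentivirus carrying a short hairpin RNA against HDAC2, a histone deacetylase, with a different hairpin in each (shRNA 1 and shRNA 2). No control hairpin is named for WT, so depletion of HDAC2 and transduction cannot be told apart.

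Total counts per library ran from 10138479 to 11398791. HDAC2 stood at 105 CPM (counts scaled to a common library size and normalised) in WT, 33.4 with shRNA 1 and 51.6 with shRNA 2, so the targeted gene was low in both libraries labelled knockdown. WT has no replicate: the p-values rest on the spread between the 2 hairpin libraries and on a prior learned over all genes, and the labels do not say whether the libraries come from separate cultures. The Müllerian lineage marker PAX8 was present, at 263 CPM in WT, whereas NAPSA, a clear cell marker, had at most 4 counts. Of 9 tested epithelial and clear cell markers, 0 were called, where 3.96% of all tested genes rose and 3.76% fell. The 7 leukocyte markers summed to between 1.24 and 3.81 CPM, with CD3E at 0, and the 5 endothelial markers to between 0.531 and 1.31 CPM, with KDR at 0. The 8 fibroblast markers summed to 16.4 CPM in WT and to 24.3 and 39.2 CPM with shRNA 1 and shRNA 2, with COL3A1 and LUM at 0 and COL1A2 the 1 of 3 tested that was called (log2 change 1.48 ± 0.27, SE; edgeR adjusted p = 0.00235). The part of such cells in the results was not tested.

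Glycolysis splits glucose into pyruvate in the cytosol, first spending ATP in its preparatory steps and then regaining it in its payoff steps, and lactate dehydrogenase can turn the pyruvate into lactate. Many of its genes are targets of the hypoxia-inducible factors (HIFs), pairs of an oxygen-labile alpha subunit and the stable partner ARNT. When oxygen is present, prolyl hydroxylases of the EGLN family mark the alpha subunit, the VHL ubiquitin ligase binds the mark, and the subunit is degraded, so that HIF activity is set largely at the protein level. Ovarian clear cell carcinoma is known for its glycogen-rich cells and for active hypoxia-response genes.

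After knockdown, HIF1A and EGLN1 rose, and the glycolytic enzyme genes GAPDH, TPI1, ENO1 and PFKL fell. HIF1A, which encodes the alpha subunit HIF-1α, was 1.501-fold higher, and EGLN1, which encodes the main oxygen-sensing prolyl hydroxylase, was 1.54-fold higher. The enzyme genes stood at 0.708 (GAPDH), 0.707 (TPI1), 0.737 (ENO1) and 0.648 (PFKL) of WT. The other 33 tested genes did not pass. Each gene was tested by edgeR's quasi-likelihood method, and p-values were adjusted by Benjamini-Hochberg over all 14524 genes tested. The 2 rises are 5.13% of the 39 tested genes, where 3.96% of all tested genes rose, and the 4 falls are 10.3%, where 3.76% of all tested genes fell. The 6 changes kept their direction but lost their calls when a trend with the GC content of the transcripts was removed and when no filter on low counts was used, and by DESeq2's Wald test HIF1A alone was called (adjusted p = 0.0355). By edgeR's likelihood ratio test GAPDH, TPI1 and ENO1 were not called (adjusted p = 0.0564, 0.0645 and 0.109), and with a mean count of at least 50 ENO1 was not (edgeR adjusted p = 0.0572). In RNA from whole cultures, fewer cells of a kind and less RNA per cell cannot be told apart.

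The upstream regions of the called genes are shown because HIFs bind a short core, A or G followed by CGTG, and because the called genes include both a HIF subunit and textbook HIF targets. Sequences are from RefSeq (GRCh38.p14), 5′ to 3′ on the gene's own strand, covering the 250 bases before the gene's start in that table, less any annotated exon. Capitals mark ACGTG or GCGTG on either strand (CACGT and CACGC are their reverse complements, and in CACGTG the 2 strands' matches overlap). HIF1A lies at chr14:61695263-61695512 (plus strand), GAPDH at chr12:6535014-6535263 (plus strand, outside all annotated exons but within the span of a longer GENCODE transcript) and PFKL at chr21:44299803-44300050 (plus strand, with 2 bases in an exon left out).
HIF1A: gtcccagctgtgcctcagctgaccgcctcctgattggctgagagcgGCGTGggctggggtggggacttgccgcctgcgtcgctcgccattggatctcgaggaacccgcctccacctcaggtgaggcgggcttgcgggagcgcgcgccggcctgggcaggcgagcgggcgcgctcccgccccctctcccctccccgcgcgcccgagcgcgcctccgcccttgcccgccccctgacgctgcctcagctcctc
GAPDH: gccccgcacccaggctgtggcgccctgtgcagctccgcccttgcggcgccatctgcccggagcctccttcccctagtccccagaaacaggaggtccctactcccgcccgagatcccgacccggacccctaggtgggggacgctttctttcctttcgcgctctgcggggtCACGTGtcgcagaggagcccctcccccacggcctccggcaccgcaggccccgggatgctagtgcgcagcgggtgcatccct
PFKL: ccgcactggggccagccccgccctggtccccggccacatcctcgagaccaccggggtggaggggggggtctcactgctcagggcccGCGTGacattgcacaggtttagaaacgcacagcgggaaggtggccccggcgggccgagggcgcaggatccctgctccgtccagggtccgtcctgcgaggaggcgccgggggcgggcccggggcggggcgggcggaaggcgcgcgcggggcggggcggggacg

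The windows of EGLN1 and ENO1 lie in exons of longer transcripts, so only the bases around their matches are shown, at chr1:231422288-231422310 for EGLN1 and at chr1:8878838-8878862 and chr1:8878744-8878768 for ENO1 (all minus strand).
EGLN1: gccgtggtgtACGTGcagagcgc
ENO1, distal: cccccctttcCACGCtactgcagcc
ENO1, proximal: agctgaggggGCGTGccccggaggc

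The EGLN1 match starts 13 bases before the gene's start, the CACGTG of GAPDH 81 bases before it, the GCGTG of PFKL 164 bases and that of HIF1A 204 bases before it. ENO1 has 2 matches of the GCGTG form, 166 and 72 bases before its start. The window of TPI1 lies entirely in annotated exons and holds neither form, which says only that these letters are not in that window. Of the 34 listed genes with an entry in the promoter table, 13 (38.2%) held ACGTG in the 250 bases, against 18.5% of all 35116 promoters, and 12 (35.3%) held GCGTG, against 32.2%. The first entry of each listed gene was used, whereas the 35116 are all entries. Windows were taken whole for these counts, and some, such as those of HK2 and GPI, lie entirely in annotated exons. How often that holds for all promoters was not examined. The matches are a description of letters and were not related to binding. Genes with a match moved in both directions: EGLN1 rose, and GAPDH fell.

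HIF1A (ENSG00000100644, chromosome 14, 61695513 to 61748259 in GRCh38) had a normalised level of 1687 CPM in WT, 2416 CPM with shRNA 1 and 2650 CPM with shRNA 2. Both hairpin libraries lay above WT, at 143% and 157% of its level. They averaged 2533 ± 165 CPM (SD, n = 2), a log2 change of 0.59 ± 0.14 (SE; edgeR adjusted p = 0.0143). HIF1A-AS1, which lies on the other strand of the locus, had 70 counts in WT, 95 with shRNA 1 and 98 with shRNA 2, where HIF1A had 16815, 27687 and 29961.

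EGLN1 (ENSG00000135766, chromosome 1, 231363751 to 231425044) stood at 78.0 CPM in WT and at 121.5 and 118.8 CPM with shRNA 1 and shRNA 2. The hairpin libraries nearly coincided and both were above WT. They averaged 120.1 ± 1.95 CPM (SD, n = 2), which is a log2 change of 0.62 ± 0.18 (SE; edgeR adjusted p = 0.0335). EGLN3, the strongly hypoxia-inducible member of the family, was barely expressed, with 33, 41 and 18 counts, and its interval of −1.39 to 0.68 on the log2 scale is too wide to show a change of either sign.

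Of the remaining genes of this group, VHL, the substrate receptor of the ligase that degrades HIF alpha subunits, had 42.6 CPM in WT and 56.0 and 51.4 CPM in the hairpin libraries, both higher, without passing the test (log2 change 0.33 ± 0.18, SE; edgeR adjusted p = 0.275). ARNT was nearly level, at 63.5, 63.4 and 63.1 CPM, and its change had a 95% interval of −0.36 to 0.35. EPAS1, which encodes HIF-2α, parted between the hairpins: it was at 336.5 CPM in WT, 496 CPM with shRNA 1 and 339.7 CPM with shRNA 2 (edgeR adjusted p = 0.357). Scaled by length, HIF1A made up 86.9% of the alpha subunit RNA of these 2 genes in WT, 86.5% with shRNA 1 and 91.1% with shRNA 2. In all, 2 of the 6 genes of HIF subunits and oxygen sensing were called, both upwards, where 3.96% of all tested genes were called up and 3.76% down. The median log2 change of the 6 was 0.32, against 0.01 over all genes tested.

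**Figure D1:**
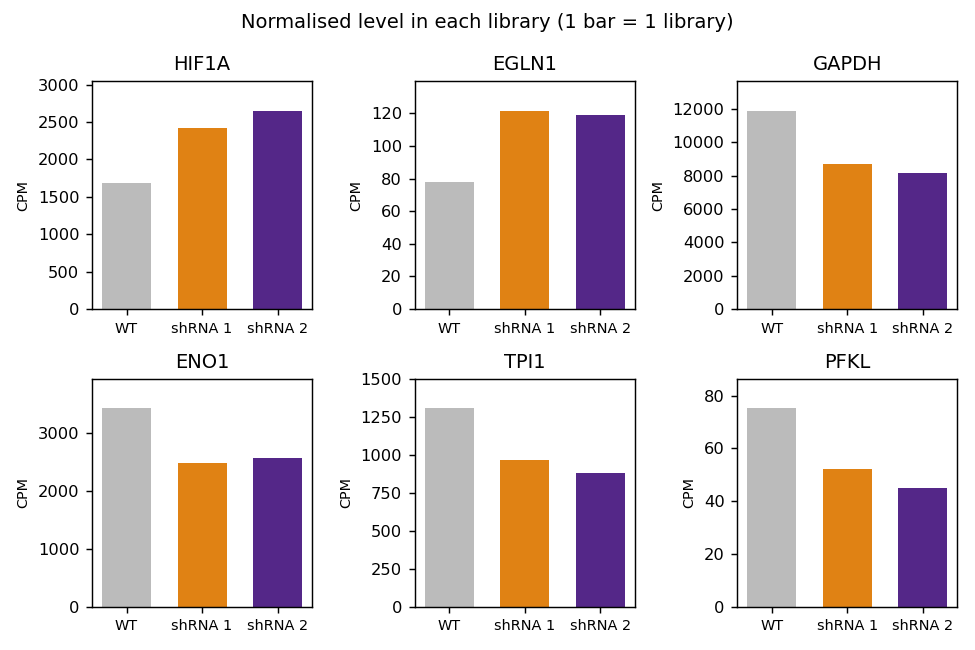
Normalised level in CPM (vertical axes, starting at 0) of the 6 called genes in each of the 3 libraries, with 1 bar per library. HIF1A and EGLN1 are higher in both hairpin libraries than in WT, and GAPDH, ENO1, TPI1 and PFKL are lower in both.

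GAPDH, the dehydrogenase that opens the payoff steps (ENSG00000111640, chromosome 12, 6533927 to 6538374), was at 11878 CPM in WT, 8665 CPM with shRNA 1 and 8159 CPM with shRNA 2. Both hairpin libraries lay below WT, averaging 8412 ± 358 CPM (SD, n = 2), and the fitted log2 change was −0.50 ± 0.11 (SE; edgeR adjusted p = 0.00899). It had the smallest p of the 39 tested genes. GAPDH is a common reference gene in RNA assays. Its call was lost by edgeR's likelihood ratio test (adjusted p = 0.0564), by DESeq2's Wald test (adjusted p = 0.0771), with the GC trend removed and with no filter on low counts. Its 65 pseudogenes in the table summed to 67, 55 and 64 counts, against 118397, 99319 and 92258 counts for the gene.

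ENO1, the main enolase (ENSG00000074800, chromosome 1, 8861000 to 8879250), fell from 3422 CPM in WT to 2482 CPM with shRNA 1 and 2561 CPM with shRNA 2. The log2 change was −0.44 ± 0.13 (SE; edgeR adjusted p = 0.0408). The neuronal enolase ENO2 had 59.6 CPM in WT, 62.8 CPM with shRNA 1 and 38.3 CPM with shRNA 2, so that WT lay between the hairpins. Per length, ENO2 made up between 1.22% and 2.06% of the enolase RNA in the 3 libraries.

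PKM, pyruvate kinase, was at 1795 CPM in WT and at 1489 and 1263 CPM with the hairpins, lower in both, and did not pass (log2 change −0.38 ± 0.15, SE; edgeR adjusted p = 0.116). PGK1 and PGAM1, the kinase and mutase between GAPDH and enolase, differed less, with intervals of −0.39 to 0.19 and −0.44 to 0.16 on the log2 scale. PGAM1 shares 28.0% of its 75-base sequences with other genes, and its estimated counts are uncertain. Of the 6 payoff genes, 2 fell and 0 rose (3.76% and 3.96% of all tested genes). Their median log2 change was −0.31, that of all tested genes 0.01, and that of all tested genes in the GC bin from 51% to 57.5%, where most listed enzyme genes lie, −0.15.

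TPI1, triose phosphate isomerase (ENSG00000111669, chromosome 12, 6867119 to 6870948), fell from 1309 CPM in WT to 967 CPM with shRNA 1 and 883 CPM with shRNA 2, a log2 change of −0.50 ± 0.15 (SE; edgeR adjusted p = 0.0407). PFKL, the liver-type phosphofructokinase of the committing step (ENSG00000141959, chromosome 21, 44300051 to 44327376), fell from 75.1 CPM to 52.3 and 45.0 CPM, by 0.63 ± 0.17 (SE) on the log2 scale (edgeR adjusted p = 0.0316). Both hairpin libraries were below WT for each gene. The sister genes of PFKL did not pass: PFKP, the platelet type, was at 499.7 CPM in WT and 395.7 and 407 CPM with the hairpins, and PFKM, the muscle type, which overlaps SENP1 on the other strand, at 79.7, 89.1 and 81.6 CPM. Per length, PFKP supplied between 76.6% and 79.0% of the phosphofructokinase RNA in every library, and PFKL 10.8% in WT, 9.23% with shRNA 1 and 7.96% with shRNA 2. Whether the 3 forms differ in their change was not tested.

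GPI, the isomerase that makes fructose 6-phosphate, was lower in both hairpin libraries (820 CPM in WT, 631 and 558 CPM) and narrowly missed the threshold, with a log2 change of −0.46 ± 0.16 (SE; edgeR adjusted p = 0.0728). ALDOA, the main aldolase, had 2112 CPM in WT, 1808 CPM with shRNA 1 and 1409 CPM with shRNA 2 (edgeR adjusted p = 0.122), and shares 44.4% of its 75-base sequences with other annotated genes, so it is uncertain. ALDOC, the brain aldolase, supplied at most 1.23% of aldolase RNA per length.

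The hexokinases HK1 and HK2, which trap glucose in the cell, had log2 changes of −0.17 ± 0.19 and −0.27 ± 0.18 (SE). HK1 held 79.8% of their per-length RNA in WT and 81.4% and 80.5% with the hairpins. PFKFB3 and PFKFB4, which make the activator of phosphofructokinase, were within intervals of −0.42 to 0.30 and −0.70 to 0.17. Of the 11 preparatory genes, 2 fell, against 3.76% of all tested genes, and 0 rose, against 3.96%. Their median log2 change was −0.32, against 0.01 over all tested genes and −0.15 over those in the GC bin from 51% to 57.5%.

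LDHA and LDHB, the subunits of lactate dehydrogenase, were at 3494 and 1060 CPM in WT, and neither passed (log2 changes −0.21 ± 0.13 and −0.15 ± 0.15, SE). LDHA supplied 67.7% of their per-length RNA in WT and 67.2% and 66.5% with shRNA 1 and shRNA 2. LDHB shares 27.0% of its 75-base sequences and is uncertain. PDK1, a mitochondrial kinase that inhibits pyruvate dehydrogenase, lay on either side of WT with the hairpins, at 107.5 and 89.1 CPM against 95.3 CPM.

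The 20 enzyme genes of these 3 groups summed to 30867 CPM in WT, 24859 CPM with shRNA 1 and 23015 CPM with shRNA 2. GAPDH alone made up 11878, 8665 and 8159 CPM of these sums. Among the 20 genes, 16 were highest in WT and 1 lowest. Over all tested genes, WT was above both hairpin libraries for 39.3% and below both for 39.9%. These shares take no account of GC content. The median log2 change of the 20 was −0.27, that of all tested genes 0.01. In the GC bin from 51% to 57.5%, where most listed enzyme genes lie, that of all tested genes was −0.15. Of the 20, 4 fell and 0 rose, where 3.76% of all tested genes fell and 3.96% rose.

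Sugar and lactate carriers did not pass, and their members went different ways. SLC2A1 (GLUT1), the basal glucose carrier, had 134.6 CPM in WT and 102.8 and 107.2 CPM with the hairpins, both lower (log2 change −0.36 ± 0.17, SE; edgeR adjusted p = 0.201). SLC2A3 (GLUT3), a high-affinity glucose carrier, had 84.6, 92.9 and 130.5 CPM, both hairpins higher but unequal (0.40 ± 0.20, SE; edgeR adjusted p = 0.228). Per length, GLUT3 was 37.1% of the RNA of this pair in WT, 45.9% with shRNA 1 and 53.3% with shRNA 2. The difference between the changes of the carriers was not tested.

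SLC16A3 (MCT4), the lactate exporter of glycolytic cells, was at 32.1 CPM in WT, 24.1 CPM with shRNA 1 and 16.4 CPM with shRNA 2. Its log2 change of −0.66 ± 0.22 (SE) was the most negative of the 39 listed genes tested and missed the threshold (edgeR adjusted p = 0.0738). It overlaps CSNK1D on the other strand, which had 1061, 1080 and 963 counts against its 320, 276 and 186. SLC16A3 shares 3.91% of its 75-base sequences with other genes. Without a stated strand, reads from stretches it shares with CSNK1D cannot be told apart. SLC16A1 (MCT1), which carries lactate in either direction, differed by 0.13 ± 0.17 (SE).

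None of the 9 tested hypoxia-response targets was called by edgeR's test, and 0 of them had an unadjusted p below 0.05. The shares of all tested genes were 3.96% called up, 3.76% called down and 23.5% with an unadjusted p below 0.05. VEGFA, the angiogenic growth factor, was at 85.2 CPM in WT and 91.7 and 87.6 CPM with the hairpins, with a 95% interval of −0.28 to 0.43 on the log2 scale. NDRG1, a stress-induced gene and widely used hypoxia marker, was at 85.6, 83.4 and 78.4 CPM, within −0.44 to 0.27. Smaller changes within these intervals were not detectable with these libraries.

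P4HA1, a collagen prolyl hydroxylase, had 113.8 CPM in WT and 154.9 and 134.6 CPM with the hairpins, both higher, without passing (log2 change 0.35 ± 0.18, SE; edgeR adjusted p = 0.246). Its paralog P4HA2 lay on either side of WT, at 92.2 and 63.5 CPM against 77.5 CPM. ADM, the vasodilator adrenomedullin, did so too, with 115 and 59 counts against 86, as did ANKRD37, an ankyrin repeat gene with 30.8% shared sequence. CA12, a membrane carbonic anhydrase, had 69, 64 and 48 counts and an interval of −1.18 to 0.19.

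BNIP3 and BNIP3L, receptors for the removal of mitochondria, differed by −0.20 ± 0.17 and 0.05 ± 0.18 (SE) on the log2 scale, and BNIP3L overlaps PNMA2 on the other strand. BNIP3P1, a pseudogene of BNIP3 that was singled out after its values were seen, was at 13.1 CPM in WT and at 26.5 and 30.8 CPM with the hairpins (log2 change 1.12 ± 0.22, SE; edgeR adjusted p = 0.00402). BNIP3 shares 5.63% of its 75-base sequences with other genes, and adding the pseudogene counts to BNIP3 (132, 305 and 349 against 2230, 2391 and 2051) did not bring a call.

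**Figure D2:**
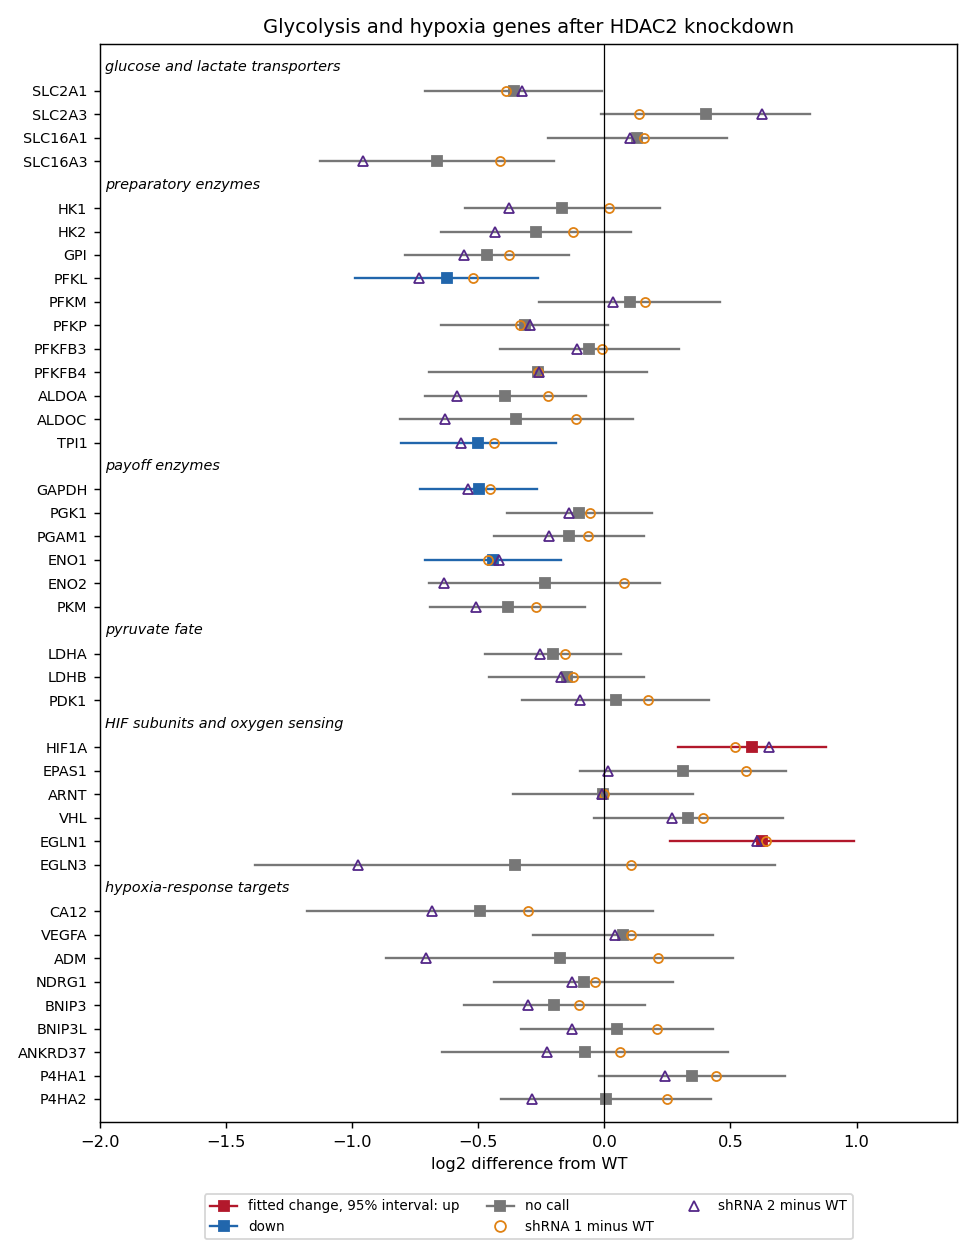
Log2 difference from WT (horizontal axis) of the 39 tested genes, grouped by role. Squares with lines are the fitted change of knockdown against WT with its 95% interval, and open circles and triangles are the single hairpins, which share the WT library. The enzyme genes lie mostly left of 0, HIF1A and EGLN1 lie right of it with both hairpins, and the hypoxia-response targets straddle it.

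Over all 39 tested genes, 11 had an unadjusted p below 0.05 by edgeR's test (28.2%), against 23.5% of all tested genes. WT was above both hairpin libraries for 22 of the 39 (56.4%) and below both for 9 (23.1%). The count of genes called upwards is near the background. The median log2 change was −0.17, and that of all tested genes 0.01. With shRNA 1 alone the median difference from WT was −0.04, and with shRNA 2 alone −0.26.

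The levels with shRNA 2 were mostly below those with shRNA 1. Of the 39, 6 were higher with shRNA 2 than with shRNA 1 (15.4%, against 50.2% of all tested genes), and the median difference was −0.16 on the log2 scale of CPM, against 0.00 over all tested genes. EGLN3 (−1.08), ADM (−0.92), ENO2 (−0.71) and EPAS1 (−0.55) were furthest below shRNA 1, the first with few counts, while SLC2A3 (0.49) was furthest above. Over all tested genes the hairpins also parted by GC content of the transcript. Above 57.5% GC, the median difference from WT was −0.22 with shRNA 1 and −0.32 with shRNA 2. From 51% to 57.5% it was −0.12 and −0.20, and in the lowest of 5 equal bins 0.26 and 0.35. Of the 39 genes, 23 lie above 51%. With 1 library per hairpin these differences have no test.

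The change of a gene went with the GC content of its transcripts. Over all tested genes, those of the lowest of 5 equal bins of GC content had a median log2 change of 0.31 and those of the highest −0.27, and the trend ran the same way with each hairpin (0.26 to −0.22 with shRNA 1, 0.35 to −0.32 with shRNA 2). HIF1A has a GC content of 36.4%, and PFKL (64.1%), GAPDH (58.8%), TPI1 (57.3%) and ENO1 (52.7%) lie high. Of the 39 genes, 23 lay in the upper 2 bins, above 51%. Across the 39 genes, which share the 3 libraries, Pearson's r between GC content and log2 change was −0.70, a description with no test.

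**Figure D3:**
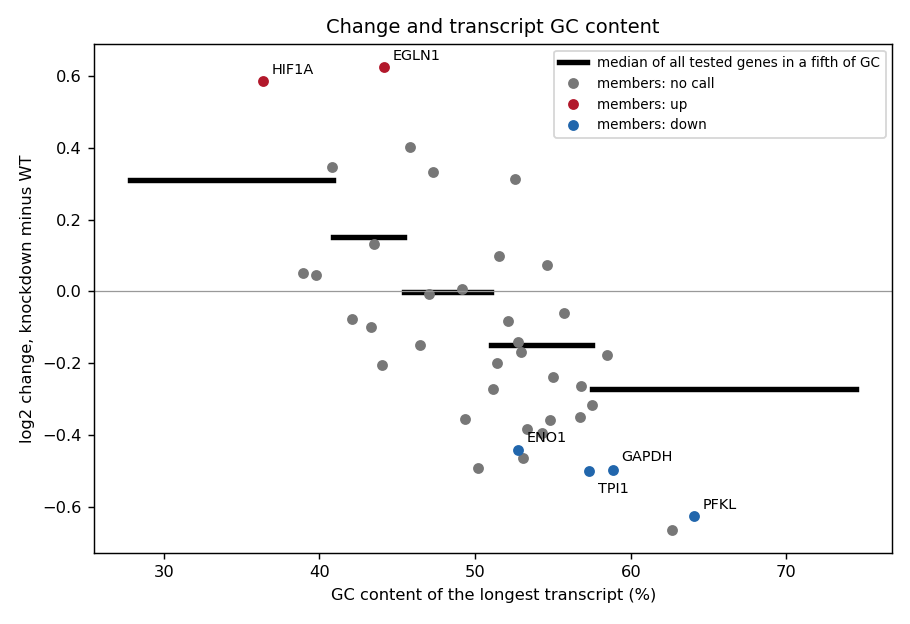
Log2 change of knockdown against WT (vertical axis) against the GC content of the longest transcript in percent (horizontal axis). Dots are the 39 tested genes and black bars the medians of all tested genes in 5 equal bins of GC content. The bars step down from 0.31 to −0.27, and the called genes lie beyond the bar of their own bin.

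With that trend removed in each library, 0 of the 39 genes passed by edgeR's test and 7 had an unadjusted p below 0.05. In the same fit 250 of all 14524 tested genes were called up, 434 were called down and 2569 had an unadjusted p below 0.05. All 6 called genes kept their direction. Of the 6, HIF1A differed most between the fits, from 0.59 to 0.23 ± 0.13 (SE; edgeR adjusted p = 0.389). EGLN1 differed least, from 0.62 to 0.51 ± 0.16 (SE; edgeR adjusted p = 0.0805), and had the smallest adjusted p of the 39. GAPDH went from −0.50 to −0.26 ± 0.11 (SE), TPI1 from −0.50 to −0.28 ± 0.14 (SE), PFKL from −0.63 to −0.33 ± 0.15 (SE) and ENO1 from −0.44 to −0.32 ± 0.12 (SE). LDHA, whose GC content is 44.0%, went the other way, from −0.21 to −0.32 ± 0.12 (SE), and EPAS1 from 0.31 to 0.42 ± 0.19 (SE). The median of the 20 enzyme genes was −0.20 after removal and −0.27 before it. The removal takes out any real change that goes with GC content along with a technical one, and these were not told apart.

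**Figure D4:**
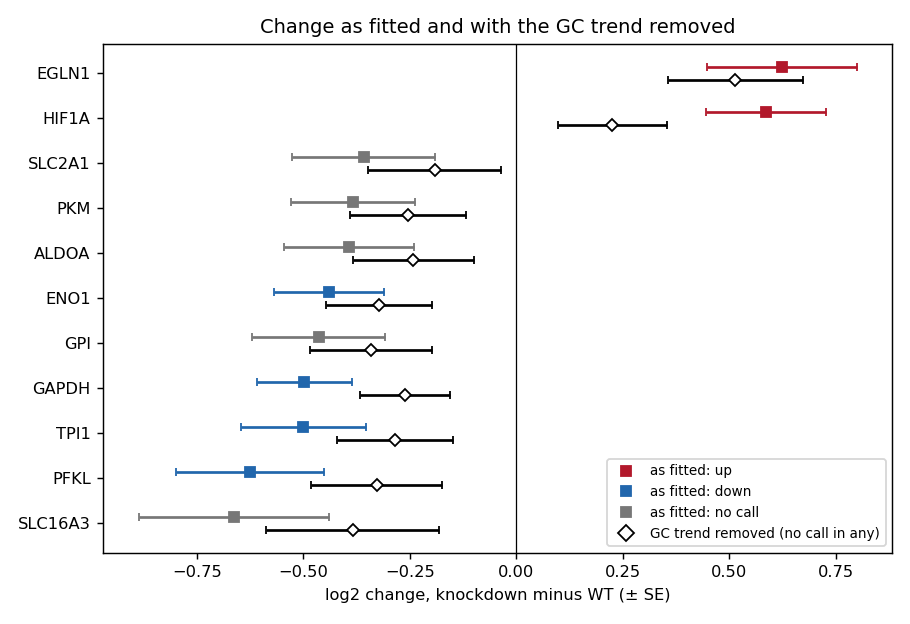
Log2 change of knockdown against WT with its SE (horizontal axis) for the 11 genes with an unadjusted p below 0.05, as fitted (coloured squares) and with the GC trend removed (white diamonds). Each of the 11 moves towards 0 and stays on its side of it, with EGLN1 moving little (0.62 to 0.51) and HIF1A more (0.59 to 0.23).

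Genes around the pathway, in lists set by role, changed at a few points. TKT, transketolase of the pentose phosphate route, fell from 558 CPM in WT to 334 CPM with shRNA 1 and 392 CPM with shRNA 2, lower in both (0.650 of WT; edgeR adjusted p = 0.0239). It was not called with the GC trend removed (log2 change −0.43; edgeR adjusted p = 0.162).

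Of 15 tested genes of glycogen and gluconeogenesis, 2 fell (3.76% of all tested genes did) and 0 rose (3.96%). PCK2, the mitochondrial enzyme that makes phosphoenolpyruvate, fell from 28.5 CPM to 15.01 and 14.9 CPM, and SLC37A4, the carrier of glucose 6-phosphate into the endoplasmic reticulum, from 32.1 CPM to 16.2 and 16.3 CPM (edgeR adjusted p = 0.00838 and 0.00470). SLC37A4 was called again with the GC trend removed (log2 change −0.78 ± 0.18, SE; edgeR adjusted p = 0.0215), and PCK2 was not.

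Of 12 tested further glycolytic and carrier genes, 2 rose (3.96% of all tested genes did) and 0 fell (3.76%). TIGAR, a p53-induced phosphatase that lowers the activator of phosphofructokinase, rose from 51.7 CPM to 100.7 and 95.9 CPM (edgeR adjusted p = 0.00323), and shares 43.1% of its 75-base sequences, so it is uncertain. GPD1L, a glycerol 3-phosphate dehydrogenase-like enzyme, rose 1.73-fold. DLD, the shared dehydrogenase subunit of the pyruvate dehydrogenase complex, rose 1.97-fold, from 57.9 CPM to 117 and 111 CPM (edgeR adjusted p = 0.00229). It was the 1 gene called of 14 at the entry of pyruvate into mitochondria, where 3.96% of all tested genes rose and 3.76% fell. These 3 rises were called again with the GC trend removed. Of 18 genes of the citric acid cycle, 0 were called by edgeR's test (3.96% of all tested genes rose and 3.76% fell), with a median of −0.08. An unadjusted p below 0.05 was found for 2 of them, against 23.5% of all tested genes.

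Of 42 other tested HIF targets, 2 rose and 2 fell, 4.76% in each direction, near the background. STC1, the secreted hormone stanniocalcin, rose from 774 CPM to 1337 and 1693 CPM (1.96-fold; edgeR adjusted p = 0.00131), and CCNG2, an atypical cyclin, rose 1.79-fold (edgeR adjusted p = 0.00802). MIF, a cytokine gene with 55.3% shared sequence, and DDIT4, an inhibitor of the growth kinase mTORC1 with 34.0% shared sequence, fell to 0.622 and 0.672 of WT and are uncertain. The rises of STC1 and CCNG2 were called again with the GC trend removed, and the falls were not. Of 14 other regulators of HIFs, 0 were called by edgeR's test, where 3.96% of all tested genes rose and 3.76% fell. An unadjusted p below 0.05 was found for 3 of them, against 23.5% of all tested genes.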

How the data were processed

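RNA was sequenced as 75-base reads from ScriptSeq libraries, per the labels' protocols. The authors deposited estimated counts per gene as whole numbers, 1 column per library. RSEM 1.2.3, edgeR and hg19 are named in the submitters' processing notes, with no role given. The sources used here do not give whether strand was used in counting. Listed genes and companion lists were chosen with earlier results of these data known.

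Genes were tested with edgeR 4.0.16 (R 4.3.3): quasi-likelihood test, TMM scaling, filterByExpr, Benjamini-Hochberg adjustment over all genes tested, threshold 0.05. The fit had 1 residual and 18.9 prior degrees of freedom. SEs and 95% intervals derive from the estimate and its F statistic. Differences of single hairpins are of log2 CPM with a prior count of 2. Alternatives used DESeq2 1.42.0 or removed a lowess trend (span 0.3) on the GC content of each gene's longest transcript. GC content was known for 97.2% of genes tested. GENCODE 29 (GRCh38) gave positions, lengths, GC content and the share of 75-base sequences a gene has in common with others, with 20% or more called uncertain. Levels per length use the longest principal transcript. The table gives no coordinates. Full statistics were given for genes with an unadjusted p below 0.05, values for their partners, and up to 3 called genes per direction of each companion list. PECAM1, of the endothelial list, was not analysed here, and some genes of the companion lists are not reported here.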

Additional observations from a re-analysis of the deposited data

How the results depend on the processing

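The 6 calls were also made with DESeq2 size factors, library size alone, upper quartile scaling and pseudogene counts added, and each of the 6 genes kept its direction under each alternative run. The counts of listed genes called up and down were 2 and 4. They were 0 and 0 with no filter on low counts, where edgeR called 0 of all genes. In that run 8 of the listed genes had an unadjusted p below 0.05, and 2486 of all 23698 genes did. With DESeq2's Wald test the counts were 1 (HIF1A) and 0, where 152 and 154 of all 14524 genes were called. By that test 9 listed genes and 1479 of all genes had an unadjusted p below 0.05, and 4 listed genes had no adjusted p. The likelihood ratio test of edgeR gave 2 up and 1 down (PFKL), with 649 and 603 over all genes. Removal of the GC trend gave 0 and 0. A mean count of at least 50 lost ENO1 (edgeR adjusted p = 0.0572). The median log2 change of the listed genes, −0.17, ran from −0.26 to −0.04 when either hairpin was left out, which gives values with no test. Library size alone moved the median of all genes from 0.01 to 0.04. Over all genes, 51.3% of calls were upwards, and 36.5% with the GC trend removed (250 up and 434 down, against 575 and 546). The median of shRNA 2 against shRNA 1, −0.157, was −0.157 with a prior count of 0.5 and −0.155 with library size alone. WT could not be left out, since it has 1 library. No paired analysis was possible because WT has a single library. Depth limits EGLN3, CA12, ADM, ANKRD37 and CA9. A count of 0 allows up to 3 counts, or 0.296, 0.263 and 0.267 CPM (counting error only).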
